A study of Mus musculus with 15 samples.

Results

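The 116 genes described here code for the respiratory chain, for ATP synthase and for factors that help to assemble them. They were taken by symbol (mt-, Nduf, Sdh, Uqcr, Atp5, or Cox followed by a digit), with pseudogenes left out and a mean of at least 10 normalised counts over 15 libraries. The table holds 36118 gene identifiers, of which 17896 pass that mean. The members are 13 mRNAs of the mitochondrial genome, 79 nuclear encoded subunits, 22 assembly factors, the supercomplex factor Cox7a2l and the Ndufa4 paralog Ndufa4l2. Atp5s, an ATP5S-like protein that is not a subunit, was counted among the 22 assembly factors. Of 120 identifiers whose symbols match, 4 lie below the mean. These are Cox4i2 at 7.38 normalised counts, Cox6a2 at 2.84, a second identifier named Atp5o at 0.402 and Cox8b at 0.107. The lowest members inside it are Ndufaf6 at 47.3 and Cox7a1 at 66.8. The members were chosen by symbol and by their mean level over all libraries, so levels are given as a description, with no test.

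Whole testes of C57/BL6 mice were sequenced in 5 groups of 3 libraries: a group labelled Control and treatments labelled TSA, AA, MTX and HMS-I1. The labels give no agent, dose, age, route or duration behind these names, no genotype other than the strain, and no statement that replicates came from separate animals. A p-value here therefore reflects variation from library to library alone, and that variation could be technical. The 3 libraries titled HMS-I1 differ in their treatment field, where the second is named HMS-I2 and the last HMS-I3. They were grouped by title.

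The respiratory chain is built from 2 genomes. Complexes I, III and IV and ATP synthase (complex V) join proteins made inside the mitochondrion to many more proteins imported from the cytosol, while complex II, succinate dehydrogenase, is wholly nuclear encoded. The mitochondrial mRNAs are cut from long transcripts of the circular genome, so their synthesis is shared, but each is stabilised on its own. Male germ cells replace several body forms of cytochrome oxidase subunits, and of cytochrome c, with forms made in the testis.

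Library by library, the tissue had the markers of testis. The 5 spermatocyte markers (Sycp1, Sycp3, Spo11, Piwil1, Ldhc) summed to 126745 to 260756 normalised counts and the 7 markers of elongating spermatids to 287578 to 896709. Epididymis markers summed to at most 14.5, with Lcn5 and Lcn8 at 0 in every library, and striated muscle markers to at most 211.5. The libraries fall into sets that cross the groups. In Control 1, Control 2, MTX 1, HMS-I1 1, AA 1 and TSA 1, here called histone-rich, 69 histone cluster genes had a mean log2 value of 6.93 to 7.98. In the other 9 libraries, called histone-poor, it was 2.54 to 3.43. No member was used to draw the sets, but they were drawn from these data, so values by set are given with no test. Each treatment has 1 histone-rich library of 3 and Control has 2.

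Several mitochondrial genes have annotated copies in the nuclear genome, and these come first because reads from them cannot be assigned with certainty. On GRCm38, a stretch of chromosome 1 of 4663 bases (chr1:24611535-24616197) holds unprocessed pseudogenes matching mt-Co1, mt-Co2, mt-Atp6, mt-Co3, mt-Nd3, mt-Nd4l and mt-Nd4. Gm28661 has 0 differing bases over the 681 it shares with mt-Co2, Gm28437 has 0 over 783 shared with mt-Co3, and Gm28438 has 1 over 345 shared with mt-Nd3. Gm10925 (mt-Atp6), Gm10222 (mt-Nd4l) and Gm28439 (876 bases of mt-Nd4) also have 0, and Gm29216 differs from the last part of mt-Co1 at 6 of 492 bases. The coding ends of mt-Co2 (chrM:7637-7696, plus strand) and of its copy (chr1:24614885-24614941, minus strand) show how little separates them. Capitals mark the bases of the stop codon, past the end of the copy.

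mt-Co2: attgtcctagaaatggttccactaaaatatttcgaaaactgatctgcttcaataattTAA
Gm28661: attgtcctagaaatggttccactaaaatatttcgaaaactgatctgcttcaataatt

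The starts of mt-Nd3 (chrM:9459-9518, plus strand) and of Gm28438 (chr1:24613060-24613119, minus strand) are shown because they hold the only differing base, in capitals, over the 345 bases they share.

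mt-Nd3: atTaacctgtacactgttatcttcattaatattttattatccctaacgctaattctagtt
Gm28438: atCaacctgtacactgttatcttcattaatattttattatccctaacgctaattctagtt

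The mitochondrial genes also overlap among themselves. The end of mt-Atp8 (chrM:7907-7969, plus strand) shares its last 43 bases, in capitals, with the start of mt-Atp6, and mt-Nd4l shares 7 bases with mt-Nd4.

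mt-Atp8: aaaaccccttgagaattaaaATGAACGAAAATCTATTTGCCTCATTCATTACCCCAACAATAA

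With identical sequence, the deposited values divide reads between gene and copy, and the division differed between libraries. For mt-Co2, a copper-binding core subunit of cytochrome oxidase, the gene alone was listed at 69501, 3963 and 308902 normalised counts in the controls, and Gm28661 at 18961, 95233 and 246. Summed, Control 1 and 2 came to 88462 and 99196. The copy held 21.4% of the sum in Control 1 and 96.0% in Control 2, which both are histone-rich. Over the 6 histone-rich libraries mt-Co2 alone spanned 17.5-fold (3963 to 69501), and the sum with the copy spanned 1.27-fold (78398 to 99196). The corresponding spans of mt-Co3, another core subunit, were 7.49-fold alone and 1.39-fold with Gm28437. In histone-poor libraries the copy held at most 5.47% of the mt-Co2 sum and at most 20.7% of the mt-Co3 sum. Values for these 7 genes are therefore given with their copies added, and are uncertain as to which locus made the RNA. The summing was chosen after the values were seen.

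**Figure D1:**
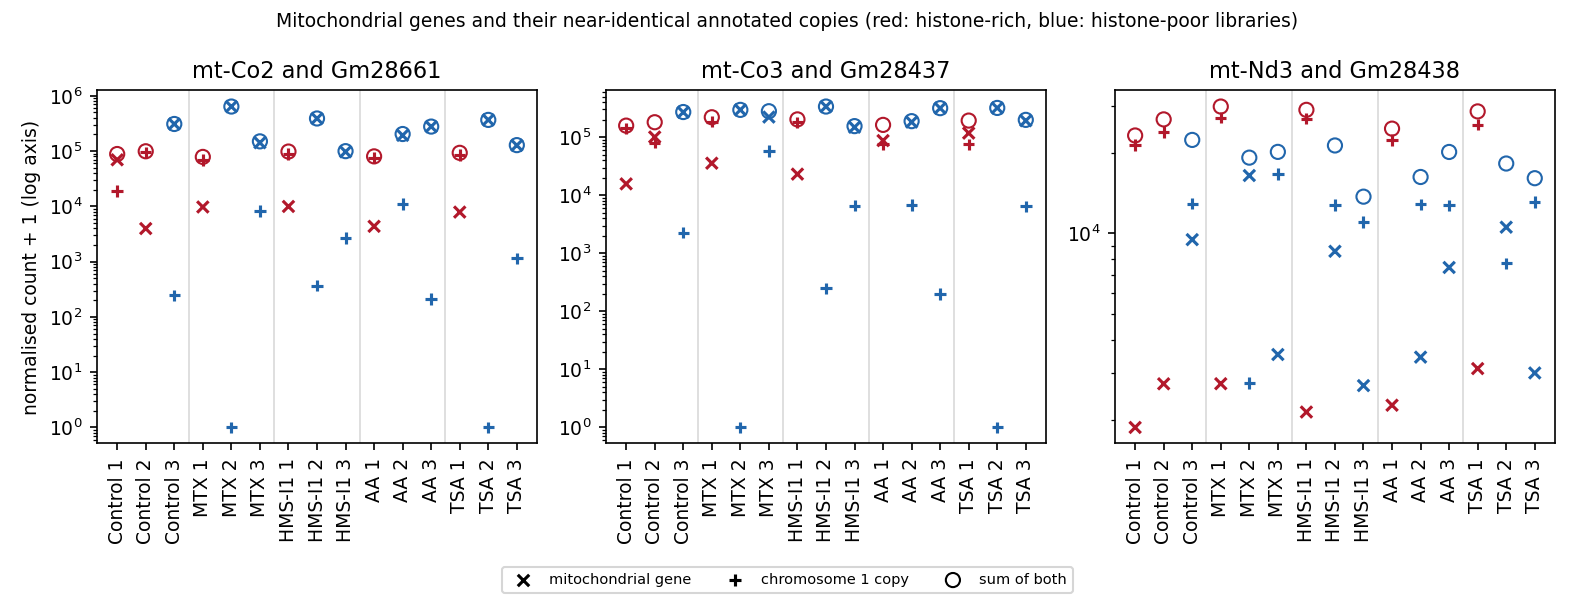
Normalised counts plus 1 (log axis) of mt-Co2, mt-Co3 and mt-Nd3 (crosses), their chromosome 1 copies (plus signs) and the sum (circles) in each of the 15 libraries, red for the 6 histone-rich and blue for the 9 histone-poor libraries. The red crosses of mt-Co2 scatter from 3963 to 69501 while the red circles lie between 78398 and 99196, and for mt-Nd3 all red circles lie above all blue ones.

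With copies added, mt-Co1, the subunit where oxygen is reduced, had the highest summed signal of the 13 mitochondrial mRNAs in each of the 15 libraries. In the 6 histone-rich libraries mt-Co3 and mt-Co2 came next. In histone-poor libraries the order varied, and in MTX 2 mt-Nd1 (711671 normalised counts) lay above mt-Co2 (639243) and mt-Co3 (295046). mt-Co1 made up 25.2% to 45.9% of the mitochondrial mRNA signal, and the ranges of histone-rich (38.9% to 43.0%) and histone-poor libraries overlapped. mt-Co3 held 26.4% to 33.45% in the histone-rich libraries and 5.15% to 16.8% in the histone-poor ones, with no overlap. Per kilobase of transcript, mt-Co3 was the highest of the 13 in each histone-rich library (201489 to 280844 normalised counts per kilobase with its copy). In MTX 2, a histone-poor library, mt-Co1 (933340) and mt-Co2 (934567) lay above mt-Co3 (376335) on that scale.

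The complex I mRNAs differed widely between the sets. mt-Nd5, a membrane arm subunit with no copy listed at 99% identity, was at 4145, 4250 and 157275 normalised counts in Control 1 to 3 and at 4406, 373626 and 34766 in MTX. In HMS-I1 it was at 4525, 169681 and 27186, in AA at 3456, 92378 and 114951, and in TSA at 4216, 147097 and 50150. Each histone-rich library lay below each histone-poor one, within every group as well as across groups. The mean log2 difference, histone-rich minus histone-poor, was -4.54. It was -5.02 for mt-Nd4l, -4.50 for mt-Nd2, -4.47 for mt-Nd4 and -3.01 for mt-Nd1, which all sit in the same membrane arm. mt-Nd6, the only mRNA of the light strand, was 1079 to 1451 in the histone-rich libraries (median 1274) and 4720 to 17228 in the histone-poor ones (median 8101), a difference of -2.89. mt-Cytb, the haem-bearing core of complex III, differed by -3.50.

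mt-Atp8 and mt-Atp6, membrane subunits of ATP synthase read from a shared mRNA, differed by -5.15 and -3.17. mt-Atp8 was listed at 515 to 1152 normalised counts in histone-rich libraries and at 6474 to 98606 in histone-poor ones. Its 204 bases include the 43 it shares with mt-Atp6, so the separate values of this pair are uncertain.

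The cytochrome oxidase mRNAs differed least in this direction. mt-Co1 with Gm29216 was at 219843 to 294303 normalised counts in the histone-rich libraries (median 269053) and at 475265 to 1442010 in the histone-poor ones (median 818157), a log2 difference of -1.61. mt-Co2 with Gm28661 differed by -1.45, against -4.61 for the gene alone. mt-Co3 with Gm28437 differed by -0.46 (157967 to 220181 against 154896 to 336729), and 3 histone-poor libraries lay below the highest histone-rich one.

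mt-Nd3, a small complex I subunit, went the other way once Gm28438 was added. The sum was 23272, 26740 and 22396 in the controls, 29874, 19221 and 20199 in MTX, and 29034, 21350 and 13724 in HMS-I1. It was 24687, 16264 and 20186 in AA and 28646, 18270 and 16096 in TSA. All 6 histone-rich libraries lay above all 9 histone-poor ones, with a log2 difference of 0.55, where mt-Nd3 alone gave -1.30. The copy held 89.1% to 92.6% of the sum in the histone-rich libraries and 14.3% to 82.6% in the histone-poor ones, so the sum is mostly the listed value of the copy in the former. Of the 13 mitochondrial mRNAs with copies added, 11 had all histone-rich libraries below all histone-poor ones and mt-Nd3 had them all above. Without the copies the count below was 12 of 13. Over all 17896 genes the shares were 12% below and 12.8% above.

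Summed over the 13 genes and their copies, mitochondrial mRNA held 1.83% to 2.16% of the total signal in histone-rich libraries and 3.73% to 14.1% in histone-poor ones. The 79 nuclear subunits held 0.925%, 1.06% and 0.641% in the controls, 1.04%, 0.478% and 1.00% in MTX, and 1.02%, 0.576% and 0.955% in HMS-I1. They held 0.897%, 0.649% and 0.606% in AA and 1.01%, 0.649% and 0.953% in TSA. Nuclear shares spanned far less than the mitochondrial ones. MTX 2, with the highest mitochondrial share, had the lowest nuclear share.

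The ratio of mitochondrial mRNA to nuclear subunit signal does not depend on the scaling of a library. With the copies added it was 1.98 to 2.18 in the 6 histone-rich libraries, whatever their treatment, and 3.90 to 29.5 in the 9 histone-poor ones. From the 13 genes alone it was 1.21, 1.32 and 12.6 in the controls, 1.07, 28.6 and 5.07 in MTX, and 1.06, 16.7 and 3.71 in HMS-I1. It was 1.43, 9.16 and 13.6 in AA and 1.37, 16.0 and 4.74 in TSA. By group the ratio was 5.03 ± 6.53 (SD, n = 3) in Control, 11.6 ± 14.9 in MTX, 7.16 ± 8.37 in HMS-I1, 8.06 ± 6.15 in AA and 7.39 ± 7.69 in TSA. The SD within a group was of the size of its mean, and the groups overlapped fully.

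**Figure D2:**
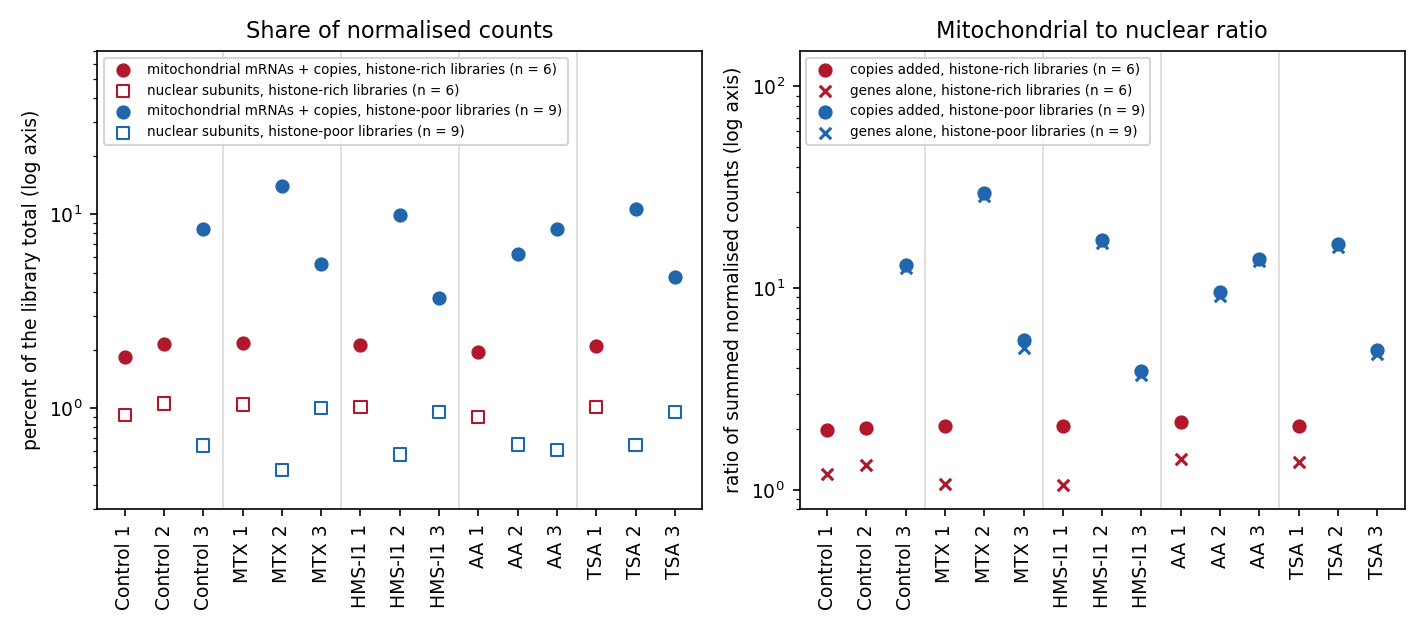
Left, percent of each library's total signal (log axis) held by the 13 mitochondrial mRNAs with their copies (filled circles) and by the 79 nuclear subunits (open squares); right, the ratio of the summed signals (log axis) with copies (circles) and from the genes alone (crosses), for 15 libraries in group order. The 6 histone-rich libraries (red) lie at ratios of 1.98 to 2.18 with copies and the 9 histone-poor ones (blue) at 3.90 to 29.5.

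By complex, the ratio of mitochondrial genes to their nuclear partners was highest in complex IV. With copies added it was 6.03 to 7.26 there in histone-rich libraries and 12.8 to 59.4 in histone-poor ones, and the genes alone gave 3.04 to 4.64 and 12.1 to 59.4. In complex I the ratio with copies was 0.648 to 0.761 in histone-rich and 2.19 to 29.6 in histone-poor libraries. It was 0.238 to 0.386 and 1.28 to 22.9 in complex III, where no copy was added, and 0.216 to 0.302 and 1.03 to 13.8 in complex V. In complexes I, III and V the nuclear sum was thus the larger in every histone-rich library and the smaller in every histone-poor one. Complex IV had the larger mitochondrial sum in all 15 libraries.

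Markers of some cell types differed between the same sets. Sertoli cell markers summed to 4473 to 4862 normalised counts in histone-rich and 8251 to 12754 in histone-poor libraries, with 6 of 6 genes lower in the former. Peritubular myoid markers summed to 2461 to 3825 and 5747 to 8963 (5 of 5 lower). Spermatogonial markers summed to 1551 to 1877 and 2630 to 4345 (4 of 5 lower), and endothelial ones to 475 to 777 and 808 to 1578 (4 of 4 lower). Elongating spermatid markers summed to 617986 to 896709 and 287578 to 548059, with 5 of 7 higher. Against these, Odf1 had a log2 difference of -0.20 and Smcp of -2.97 (medians of 9159 and 64247). Leydig cell markers overlapped (24090 to 34709 and 21201 to 52522), as did macrophage markers (1325 to 2159 and 1384 to 3545), with Star and Csf1r higher in the histone-rich libraries and the other 4 genes of each list lower. Their part in the mitochondrial values was not tested. In bulk tissue, fewer cells of a type and less RNA per cell cannot be told apart. The count of genes above 0 also differed, at 20683 to 21244 in histone-rich and 21363 to 22858 in histone-poor libraries. Whether the libraries were made differently was not tested either.

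The nuclear subunits did not share the direction of their mitochondrial partners. Their median log2 difference, histone-rich minus histone-poor, was 0.50, with 60 of 79 higher, while the median of all genes was 0.00. For 22 of the 79, all histone-rich libraries lay above all histone-poor ones, and for 2, Sdhc and Ndufa10, all lay below. The shares over all genes were 12.8% and 12%. The median was 0.45 in complex I (27 of 36 higher), 0.59 in complex III (6 of 8), 0.60 in complex IV (14 of 15) and 0.63 in complex V (12 of 16).

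Complex II, which has no mitochondrial subunit, had a median of -0.20. Its 4 transcripts are long, from 1142 bases (Sdhb) to 2900 (Sdha). That lies within the range of the 26 longest nuclear subunits (980 to 2900 bases), whose median was -0.02. The part of length in the value of complex II was not tested. Sdhc, a membrane anchor of succinate dehydrogenase, had the most negative value of the nuclear subunits, -1.40. It was at 979, 750 and 2473 normalised counts in the controls, 931, 1808 and 3029 in MTX, and 1042, 2294 and 3147 in HMS-I1. It was at 958, 2177 and 2047 in AA and 1000, 2564 and 3056 in TSA. Its partner anchor Sdhd differed by 0.43 and the catalytic subunits Sdha and Sdhb by -0.23 and -0.17, with overlapping sets.

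The largest positive differences belonged to small subunits of several complexes. Atp5mpl, a small membrane protein of ATP synthase, was at 5372 to 7226 normalised counts in histone-rich libraries (median 6467) and 691 to 3068 in histone-poor ones (median 1683), a log2 difference of 2.05. Atp5e, the epsilon subunit of the central stalk, differed by 2.03, though MTX 3 at 3572 lay above AA 1 at 3315. Ndufa2 and Ndufa7, accessory subunits of complex I, differed by 1.94 and 1.90, and Uqcr10, a small subunit of complex III, by 1.91. The other negative values of the lowest 5 were Ndufab1 (-0.89), the acyl carrier protein, Atp5f1 (-0.65), of the outer stalk, the iron-sulphur subunit Ndufs1 (-0.52) and the subunit c gene Atp5g3 (-0.47), a nuclear gene of the rotor ring. These 4 overlapped between the sets. The F1 head subunits Atp5a1 and Atp5b differed by -0.36 and 0.67, Uqcrc1 and Uqcrfs1 by -0.01 and 0.50, and Cox4i1 and Cox5a by 0.49 and -0.27. The 3 genes that code for the same subunit c protein went different ways. Atp5g1 had all histone-rich libraries above the others (1790 to 2359 against 384 to 1452 normalised counts), while Atp5g2 (log2 difference 1.11) and Atp5g3 overlapped.

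These differences varied with transcript length. For the 27 shortest nuclear subunits (321.5 to 576.5 bases) the median log2 difference was 0.99 and 26 were higher in histone-rich libraries. For the next 26 (586 to 971 bases) it was 0.50 with 22 higher, and for the 26 longest (980 to 2900 bases) -0.02 with 12 higher. Other protein coding genes of up to 576.5 bases, from there to 971 and from there to 2900 had medians of 1.30 (303 genes), 0.41 (1214) and -0.07 (7888). The histone genes that drew the sets were not left out of these other genes. Their medians are therefore not independent of how the sets were drawn. The medians of subunits and of other genes thus came in the same order of length, and whether they differ was not tested. Spearman's rho between length and difference was -0.56 over the 79 subunits and -0.12 over 16438 other genes, histone genes again included. These are correlations across genes of the same libraries, which are not independent replicates.

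**Figure D3:**
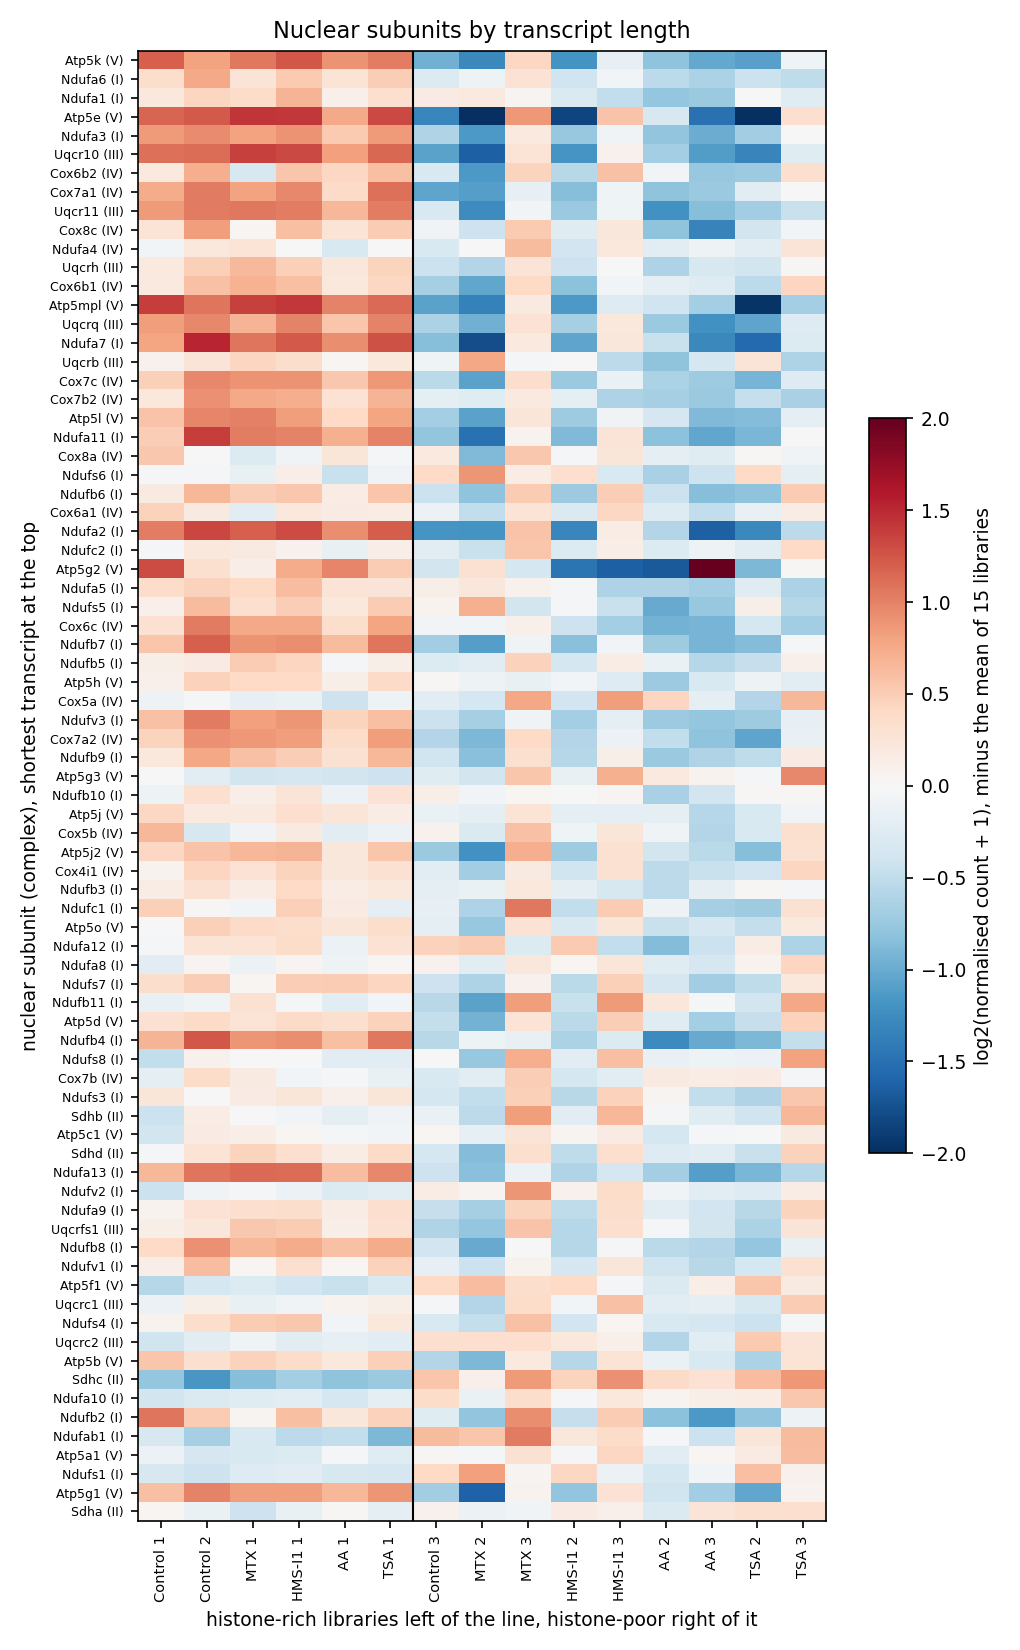
Values of log2(normalised count + 1) minus the mean of 15 libraries for 78 of the 79 nuclear subunits, shortest transcript at the top, with the 6 histone-rich libraries left of the line and the 9 histone-poor ones right of it. The shortest 27 genes have a median difference of 0.99 between the sets and the longest 26 a median of -0.02, and Sdhc stands out among the long genes in the other direction.

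The histone-poor libraries also differed among themselves. Relative to the mean over libraries, the 27 shortest subunits had a median log2 value of -1.03 in MTX 2, -0.71 in HMS-I1 2, -0.70 in TSA 2, -0.75 in AA 3 and -0.62 in AA 2. It was 0.28 in MTX 3, 0.01 in HMS-I1 3 and -0.09 in TSA 3, and -0.44 in Control 3. The 5 libraries with the lowest short subunits had mitochondrial to nuclear ratios of 9.16 to 28.6, from the genes alone, while MTX 3, HMS-I1 3 and TSA 3 had ratios of 3.71 to 5.07. Control 3 was out of this order, with a ratio of 12.6, above that of AA 2. The short subunits are part of the nuclear sum by which the ratio is divided. Low short subunits therefore raise it by construction.

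In abundance per kilobase, nuclear subunits of complex III had the highest median (4871 normalised counts per kilobase) and complex II the lowest (1603). Uqcrq led complex III at 11958, Atp5h led complex V at 8376 and Ndufa12 led complex I at 7811. The highest of all 79 was a testis form, Cox7b2, at 15978, followed by the body form Cox7a2 at 15392 and Cox6c at 15074.

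Per base of transcript, testis forms held the larger part of their pairs in every library. Cox7b2 made up 94.2% to 98.1% of Cox7b2 plus Cox7b (median 97.0%), and Cox8c 87.9% to 96.5% of Cox8c plus Cox8a (median 93.9%). Cox6b2 held 57.4% to 81.2% of its pair with Cox6b1 (median 73.9%). Cyct, the testis cytochrome c that carries electrons from complex III to complex IV, held 79.3% to 92.4% of its pair with Cycs (median 85.8%). That share rests on transcript lengths of 655 bases for Cyct and 3123 for Cycs. In normalised counts not divided by length, Cycs lay above Cyct in AA 2 (2587 against 2078) and AA 3 (4064 against 3760). The lowest shares of Cox7b2 and Cox8c were in AA 3, of Cyct in AA 2 and of Cox6b2 in MTX 1. The forms of other organs were low. Cox7a1, the heart and muscle form, made up 0.644% to 1.68% of its pair with Cox7a2, Cox4i2 at most 0.210% beside Cox4i1 and Cox6a2 at most 0.349% beside Cox6a1.

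**Figure D4:**
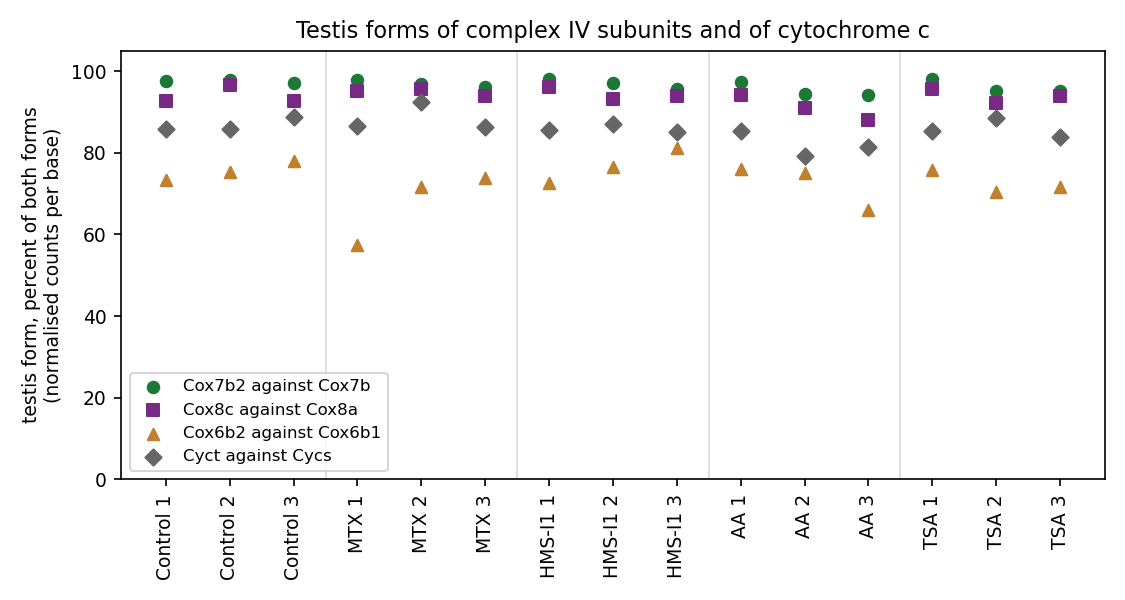
Percent of the testis form in each pair, from normalised counts per base of transcript, in the 15 libraries. Cox7b2 and Cox8c lie above 87% everywhere, Cyct between 79.3% and 92.4%, and Cox6b2 between 57.4% and 81.2%.

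Treatment against Control was tested with limma on log2(normalised count + 1) over all 17896 genes. At an adjusted p under 0.05 it called 0 of the 116 members and 0% of all genes in each of the 4 comparisons and in the F-test among the 5 groups. At an unadjusted p under 0.05, limma listed 0 members in MTX (0.548% of all genes), 0 in HMS-I1 (0.408%), 5 in AA (0.799%) and 0 in TSA (5.74%). The 5 members in AA were all lower, as were 0.38% of all genes at that p. No count model was run, since whole reads could not be recovered from the deposited values. With array quality weights, limma called 71 of 116 members in AA, beside 37.1% of all genes, and 11 in TSA, beside 23.7% of all genes. It was a fit whose weights did not converge and gave AA 2 a weight of 38.8 against 0.230 to 2.92 elsewhere.

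All 13 mitochondrial mRNAs, taken alone, lay higher than Control in every treatment, where 47.9%, 47.9%, 47.3% and 50.5% of all genes did in MTX, HMS-I1, AA and TSA (12 of 13 in HMS-I1 under trimmed mean scaling). They had median log2 differences of 1.12 in MTX, 0.71 in HMS-I1, 0.96 in AA and 0.98 in TSA. With copies added 12 of 13 were higher, with medians of 1.09, 0.69, 0.82 and 0.78, and mt-Nd3 was lower in each (-0.26 to -0.09, SE 0.31). The standard errors of the single genes, taken alone, were 0.82 to 2.30. The 4 comparisons share the 3 control libraries, and Control holds 2 histone-rich libraries where each treatment holds 1. With the library set as a term in the fit, the medians were -0.01, -0.47, -0.33 and -0.38. Within the histone-poor libraries alone they were -0.07, -0.98, -0.56 and -0.78, and within the histone-rich ones -0.19, 0.11, -0.16 and 0.01. The positive sign was therefore not kept within sets except in the histone-rich libraries of HMS-I1 and TSA. Leaving out MTX 2, HMS-I1 2 or TSA 2 also gave negative medians, of -0.21, -0.33 and -0.12.

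The nuclear subunits had medians of -0.08 in MTX, -0.08 in HMS-I1 and -0.09 in TSA, with 50 of 79 lower in each. All genes had medians of -0.01, -0.02 and 0.01, with 52.1%, 52.1% and 49.5% lower. With the set term the medians of the subunits were 0.12, 0.13 and 0.08. Nuclear subunits with the smallest p on a side of a comparison did not pass (limma adjusted p of 1.00 in MTX and HMS-I1 and 0.886 in TSA). They include Ndufv2 at 0.41 (SE 0.26) and Cox8a at -0.45 (SE 0.31) in MTX, and Atp5g2 at -1.20 (SE 0.86) on the lower side in HMS-I1. In TSA they are Atp5a1 at 0.32 (SE 0.26) and Ndufa5 at -0.52 (SE 0.34). Atp5g2, a gene of subunit c, varied widely, at 270, 58.2 and 51.5 normalised counts in HMS-I1 and 319, 49.6 and 683 in AA. Round spermatid markers had a median of -1.44 in TSA (5 of 5 lower, 4 with unadjusted limma p under 0.05), and 0 were called. Their part in the subunit values was not tested. The core subunits Sdha, Sdhb, Uqcrc1, Uqcrfs1, Ndufs1 and Ndufv1, the F1 head subunits Atp5a1 and Atp5b, and the nuclear cytochrome oxidase subunits Cox4i1 and Cox5a lay between -0.50 (Ndufv1 in AA) and 0.32 (Atp5a1 in TSA) over the 4 treatments, with SE of 0.21 to 0.43.

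In AA, 69 of 79 nuclear subunits lay lower than Control, with a median log2 difference of -0.34, where 52.6% of all genes were lower and their median was -0.02. By complex, 33 of 36 were lower in complex I (median -0.50), 8 of 8 in complex III (-0.39), 13 of 15 in complex IV (-0.37), 13 of 16 in complex V (-0.29) and 2 of 4 in complex II (-0.01). Among the 22 assembly factors 16 were lower (-0.24). The lower sign of the nuclear median was also found with the set term (-0.15, 67 of 79 lower). Within the histone-poor libraries the median was -0.18, from AA 2 and AA 3 against Control 3 alone. Within the histone-rich ones it was -0.16, from AA 1 alone against Control 1 and Control 2. The nuclear median was 0.07 with the set term and a replicate block together. Both histone-poor libraries of AA had low short subunits (medians of -0.62 in AA 2 and -0.75 in AA 3). So had MTX 2 (-1.03), HMS-I1 2 (-0.71) and TSA 2 (-0.70), while MTX 3, HMS-I1 3 and TSA 3 were at 0.28, 0.01 and -0.09. Control 3 was at -0.44. The set term does not account for this library mix, and its part in the AA values was not tested.

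No single member passed in AA. Ndufb10, an accessory subunit of complex I, was at 2326, 3171 and 2704 normalised counts in Control and at 2305, 1602 and 1933 in AA. All AA libraries lay below all controls, though AA 1 lay close to Control 1, and the log2 difference was -0.49 (SE 0.20, limma adjusted p = 1.00). Ndufa1, a small membrane subunit of complex I, was at 1150, 1334 and 1107 in Control and 1063, 576 and 592 in AA, a difference of -0.74 (SE 0.32). Ndufs6, a zinc-binding accessory subunit, was at 1768, 1788 and 2384 in Control and 1334, 1148 and 1352 in AA, a difference of -0.62 (SE 0.28). These 3 genes separate the groups without overlap, as do Ndufa12 (-0.70, SE 0.34), its assembly counterpart Ndufaf2 (-0.41, SE 0.28) and Ndufa4l2 (-0.45, SE 0.25). For Ndufaf2 the margin was small, with AA 1 at 2096 and Control 1 at 2106 normalised counts. With these 6 of 116 members all AA libraries lay below all controls, which held for 2.23% of all genes. Ndufa4l2 was also below all controls in MTX (1 of 116 members, 1.15% of all genes), and no member was in HMS-I1 (1.35%) or TSA (2.18%).

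Cox8c and Cox16 were also among the 5 members with an unadjusted limma p under 0.05 in AA. Cox8c was at 6591, 9785 and 5193 normalised counts in Control and 6603, 3129 and 2168 in AA, a difference of -0.97 (SE 0.42), with AA 1 inside the control range. Cox16, an assembly factor of complex IV whose transcript is shared with the annotated gene Gm20498, was at 1608, 2090 and 1617 against 1611, 1051 and 1074 (-0.53, SE 0.24). Leaving out Control 2, AA 2 or AA 3 left 0 members at that p, and leaving out Control 1 left 1, while leaving out AA 1 gave 16. Beside these values in AA, 6 of 7 elongating spermatid (median -0.62), 5 of 5 spermatocyte (-0.19) and 3 of 5 round spermatid markers (-0.02) were lower. Higher were 6 of 6 Sertoli (0.32), 4 of 4 endothelial (0.59), 4 of 5 Leydig (0.50) and 4 of 5 macrophage markers (0.64), with 0 called. So were 5 of 5 peritubular myoid (0.36) and, among germ cells, 4 of 5 spermatogonial markers (0.36). TSA, with a nuclear median of -0.09, had 6 of 7 elongating spermatid (-0.57) and 4 of 5 spermatocyte markers (-0.20) lower. In TSA 6 of 6 Sertoli (0.56), 3 of 4 endothelial (0.29), 5 of 5 Leydig (0.52) and 3 of 5 macrophage markers (0.43) were higher. So were 5 of 5 peritubular myoid (0.38) and 5 of 5 spermatogonial markers (0.59). Elongating spermatid markers were lower for 6 of 7 in MTX (-0.39) and HMS-I1 (-0.22) as well. There 3 of 5 spermatocyte markers were higher (medians of 0.06 and 0.03). Control holds more histone-rich libraries than each treatment. The part of these markers in the subunit values was not tested.

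**Figure D5:**
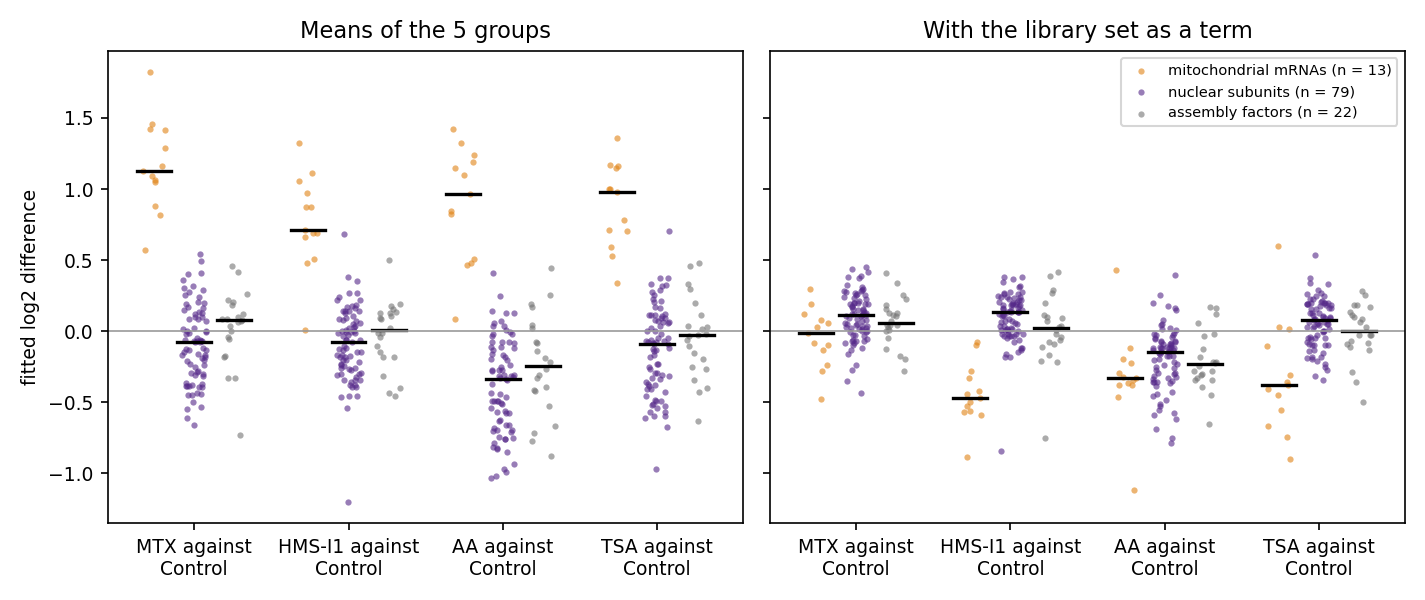
Fitted log2 differences from Control of the 13 mitochondrial mRNAs, 79 nuclear subunits and 22 assembly factors (points, genes; black lines, medians) in the 4 treatments, from the means of the groups (left) and with the library set as a term (right). The mitochondrial medians of 0.71 to 1.12 on the left become -0.47 to -0.01 on the right, and the nuclear median of AA is -0.34 and -0.15.

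Other genes of mitochondrial function were read from lists. Of 29 genes of mitochondrial transcription and RNA handling, 15 were higher in histone-rich libraries, with a median log2 difference of 0.03. Against Control their medians were 0.13, 0.01, -0.05 and 0.05 in MTX, HMS-I1, AA and TSA, and limma called 0 in each. Polrmt, the RNA polymerase of the mitochondrion, had the smallest p of the list in MTX (-0.61, SE 0.34) and in AA (-0.94, SE 0.34, limma adjusted p = 1.00). Between sets Polrmt differed by 0.57 (medians of 618 in histone-rich and 417 in histone-poor libraries). Control holds more histone-rich libraries than each treatment, and the part of this mix in the Polrmt values was not tested. In TSA, Twnk, the helicase of mitochondrial DNA, was at 0.55 (SE 0.23) and Tfb1m, which methylates mitochondrial ribosomal RNA, at -0.48 (SE 0.21), with limma adjusted p of 0.859 and 0.871.

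Of 31 further assembly factors, 17 were higher in histone-rich libraries (median 0.05), and 0 passed in any comparison. In TSA, Lyrm7 and Bcs1l, which act in the placing of the Rieske protein in complex III, were at -0.88 (SE 0.34) and 0.69 (SE 0.32). The 14 citrate cycle genes had a median of -0.24 between sets (10 lower) and of 0.08, 0.10, 0.00 and 0.22 against Control. The 9 nuclear regulators, among them Ppargc1a and Nrf1, had a median of -0.46 between sets (6 lower) and of 0.12, 0.04, 0.00 and 0.14 against Control. The electron carriers Cyct and Cycs differed by -0.71 (SE 0.37) and -0.18 (SE 0.24) in AA.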

How the data were processed

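Whole testis RNA from 15 libraries, 3 in each of 5 groups, was sequenced. The authors deposited 1 table of signal values, normalised counts per gene, whose columns are the libraries. By the submitters' processing notes, FastQC 0.11.9, Salmon 0.12.0, DESeq2 1.34.0 and the build GRCm39 were used. Salmon estimates counts per transcript, so reads of identical sequences are divided by its model. The values are not whole reads, the depth is unknown, and counting intervals cannot be given. Column sums were 2.75e+07 to 4.06e+07. No source used here gives the strand setting.

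Gene names, lengths and sequences came from GENCODE M21 (GRCm38), matched by Ensembl number for 35825 identifiers and not for 293. Coordinates are those of GRCm38. Mitochondrial rRNA and tRNA genes were not used here. Copies were found by aligning member transcripts to all transcripts, at 99% identity or more over at least 294 bases. In addition, 5 annotated pseudogenes with matching symbols, such as Ndufb4c, were left out.

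Values were analysed as log2(normalised count + 1) for 17896 genes with a mean of at least 10, which understates changes of low genes. limma 3.58.1 in R 4.3.3 (lmFit, eBayes with trend) fitted 5 group means with 10 residual degrees of freedom. Tests were two-sided, with Benjamini-Hochberg adjustment within each comparison and a threshold of 0.05. The fit was tested on simulated data first. Library sets were split at the largest gap in the mean log2 value of 69 histone genes. Set contrasts, ratios and shares carry no test. The members and the lists were chosen with earlier results of these data known. Members named were the mitochondrial mRNAs, core and F1 head subunits with Cox4i1 and Cox5a, isoform pairs, those with the smallest p on each side of a comparison and the 5 largest differences between sets each way. A gene that this rule names is not reported here. Ndufa12, Ndufaf2, Ndufa10, Sdhd, Cox6c, Uqcrq and Atp5h were named after their values were seen, as were members at an unadjusted p under 0.05. Alternatives were other pseudocounts, filters, scalings, covariates and weights, each library left out, and copies added.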

Additional observations from a re-analysis of the deposited data

How the results depend on the processing

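The count of genes called was 0 in each comparison under pseudocounts of 0.1 and 10, no filter, a mean of at least 50, both rescalings, the library set term and copies added. It was not 0 in 2 kinds of setting. Array quality weights, which did not converge, called 6645 genes and 71 members in AA, 4234 genes and 11 members in TSA, and 5640 genes and 52 members in the F-test. Leaving out a library called 0 to 1 genes in MTX, HMS-I1 and AA, 0 to 992 in TSA and 0 to 246 in the F-test, and 0 members throughout. The single gene came without Control 1 (in MTX and the F-test also without HMS-I1 3), and 992 and 246 without TSA 1. The cause was not tested. Leaving out a library moved the mitochondrial median between -0.21 and 2.56 in MTX, -0.33 and 2.01 in HMS-I1, 0.24 and 2.11 in AA and -0.12 and 2.11 in TSA. The nuclear median moved between -0.25 and 0.17, -0.27 and 0.14, -0.56 and -0.22, and -0.29 and 0.08. A geometric mean over members gave a median mitochondrial to nuclear ratio of 17.15 (4.74 from sums). Adding copies was chosen after the data were seen. Adding rRNA and tRNA genes to the mitochondrial share was not run.

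Whether replicate numbers pair the libraries could not be decided. Deviations of same-numbered libraries from the group means correlated with Control at 0.41 to 0.52 for number 1, -0.58 to -0.30 for number 2 and 0.21 to 0.67 for number 3. The best correlation with another control was 0.60 to 0.63, 0.34 to 0.74 and -0.42 to -0.09, so only number 3 matched its own number best. Control 2 is histone-rich and each treated number 2 is histone-poor, so pairing cannot be told apart from the library sets. With a replicate block limma called 0 genes in each comparison, and genes at an unadjusted p under 0.05 went from 98, 73, 143 and 1027 to 322, 415, 761 and 2748 in MTX, HMS-I1, AA and TSA. With set term and replicate block together, 0 genes were called, the mitochondrial medians were -0.52, -0.90, -0.72 and -0.83 and the nuclear ones 0.26, 0.29, 0.07 and 0.27.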
